A study of Mus musculus with 15 samples.

Results

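The genes described are Greb1, its paralogue Greb1l and the steroid hormone receptor genes Esr1, Esr2, Pgr and Nr3c1, 6 of the 22180 genes with a probe set of their own in an array study of mouse kidney. Greb1 was picked because its level differed between the genotypes in these same data, and the other 5 genes for their relation to it, so the genotype difference of Greb1 is given as a description with no test. Each of the 6 genes had exactly 1 probe set, and all 6 were measured in all 15 samples. The samples are total RNA of kidneys from 8 mice without Grhl1 (Grhl1-/-) and 7 wild-type mice (Grhl1+/+), all about 6 months old, with 1 array per mouse. In the labels the wild types are numbered 1 to 7 and the knockouts 8 to 15. For strain, sex, batch and the deleted part of Grhl1, nothing is stated in the labels. Values are log2 expression summaries, so that a difference of 1 is a doubling, and differences are knockout minus wild type.

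Steroid hormones such as oestradiol, progesterone and cortisol or corticosterone act through nuclear receptors, proteins that bind the hormone, enter or stay in the nucleus and switch target genes on or off at short DNA elements. Greb1 is among the best known oestrogen-induced genes of breast cancer cells, and its protein binds the oestrogen receptor as a cofactor. Greb1l is best known from the developing kidney, where loss of the human gene can leave a kidney missing. In adult kidney the oestrogen receptor alpha (Esr1) and the glucocorticoid receptor (Nr3c1) are the members usually detected, and the progesterone receptor gene (Pgr) is itself a classical oestrogen target in the reproductive tract.

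The DNA before the start sites of Greb1, Esr1 and Esr2 is shown because the levels of these genes varied most clearly with genotype or with the Y-linked transcripts described further on. The windows are the 250 bases before each RefSeq start in the mouse build GRCm38.p6, written 5′ to 3′ on the strand of the gene, and capitals mark every match to the oestrogen half-site, GGTCA or its reverse complement TGACC. Windows of 4 of the 6 genes were matched by symbol.
Greb1, chr12:16800887-16801136, minus strand: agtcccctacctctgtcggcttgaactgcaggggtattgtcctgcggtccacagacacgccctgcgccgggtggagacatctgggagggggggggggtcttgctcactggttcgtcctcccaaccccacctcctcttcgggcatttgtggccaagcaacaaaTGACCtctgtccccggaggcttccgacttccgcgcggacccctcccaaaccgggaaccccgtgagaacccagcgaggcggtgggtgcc
Greb1, chr12:16757240-16757489, minus strand: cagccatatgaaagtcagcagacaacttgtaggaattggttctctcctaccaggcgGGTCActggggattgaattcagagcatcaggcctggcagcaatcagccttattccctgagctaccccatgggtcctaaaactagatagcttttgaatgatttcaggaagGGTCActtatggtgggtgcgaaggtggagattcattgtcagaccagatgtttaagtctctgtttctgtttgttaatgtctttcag
Esr1, chr10:4611739-4611988, plus strand: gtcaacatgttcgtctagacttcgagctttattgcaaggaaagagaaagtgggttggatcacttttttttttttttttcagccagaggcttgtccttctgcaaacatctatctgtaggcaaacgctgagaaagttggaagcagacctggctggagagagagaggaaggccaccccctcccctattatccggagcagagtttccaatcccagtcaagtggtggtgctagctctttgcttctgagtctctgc
Esr1, chr10:4709908-4710157, plus strand: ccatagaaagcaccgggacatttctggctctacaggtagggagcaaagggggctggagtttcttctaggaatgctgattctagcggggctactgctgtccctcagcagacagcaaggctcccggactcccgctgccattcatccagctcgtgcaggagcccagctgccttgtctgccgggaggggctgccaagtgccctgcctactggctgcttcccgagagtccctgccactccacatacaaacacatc
Esr2, chr12:76177260-76177509, minus strand: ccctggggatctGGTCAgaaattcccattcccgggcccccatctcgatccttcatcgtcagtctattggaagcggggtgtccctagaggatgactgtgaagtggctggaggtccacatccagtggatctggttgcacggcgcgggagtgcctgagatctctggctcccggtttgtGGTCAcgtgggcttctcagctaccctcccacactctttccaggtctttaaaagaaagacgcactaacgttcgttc

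Both windows of Greb1 and the window of Esr2 held the half-site, and neither window of Esr1 did. Searched on both strands, the half-site occurred in 35.2% of all 32851 promoter windows of this length. The full oestrogen response element, in which GGTCA and TGACC stand 3 bases apart and which contains the half-site, occurred in 0.0639% of all windows and in none of the windows of Greb1, Esr1, Esr2 or Pgr. The grainyhead site AACCGGTT was found in 0.116% of all windows, and the glucocorticoid and progesterone element, GNACA and TGTNC 3 bases apart, in 0.387%. Neither lay in a window of these 4 genes. A match is a description of the letters and does not show binding.

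Defining markers of kidney were high in every sample, with a mean over 10 measured markers of 11.54 to 11.83 in wild types and 11.53 to 11.77 in knockouts. Grhl1 itself read 4.96 to 5.25 in wild types and 4.40 to 4.92 in knockouts, and its groups did not overlap, though its probe set was dim and missed the threshold over all probe sets (limma adjusted p = 0.113). In addition, samples of both genotypes differed in Y-linked, adrenal and liver transcripts, and in fat transcripts as given with Greb1. Y-linked transcripts (3 of 4 listed genes measured) were present in 10 samples, 5 of each genotype, with means of 8.37 to 8.68. They were at 3.96 to 4.26 in the other 5, wild types 6 and 7 and knockouts 13, 14 and 15. Xist, the X inactivation gene, read 3.60 to 4.29 in the 10 samples with Y-linked transcripts and 11.41 to 11.57 in the other 5. Together these are the patterns of male and of female mice, though the labels give no sex. Adrenal cortex markers (9 of 10 measured) reached means of 7.04 to 9.14 in 6 samples, wild types 2 and 3 and knockouts 10 to 13, against 4.85 to 5.21 in the other 9, and adrenal medulla markers were high in the same samples. Liver markers stood at 9.21 to 11.07 in wild types 3 and 7 and knockout 10, against 7.26 to 7.56 elsewhere. The lists for ovary, oviduct and uterus, and testis and epididymis had means that overlapped between the genotypes and spanned at most 5.18 to 5.42, 6.64 to 6.82 and 5.07 to 5.40.

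Greb1 was higher in every knockout kidney than in every wild-type kidney. Wild-type replicates 1 to 7 read 5.06, 5.55, 5.70, 4.88, 4.94, 5.13 and 5.02, and knockout replicates 8 to 15 read 6.52, 6.50, 6.65, 6.53, 6.94, 7.18, 7.03 and 7.08. The lowest knockout lay 0.80 above the highest wild type. The means were 5.18 ± 0.32 (SD, n = 7) and 6.80 ± 0.28 (SD, n = 8), a difference of 1.62 (SE 0.14) or 3.08-fold. The wild-type mean stood above 34.0% of all probe sets and the knockout mean above 58.2%, so in wild types the probe set was in the dim part of the array, where log2 differences can understate the change. Over all 23521 probe sets tested, 3 (0.0128%) passed the threshold of a Benjamini-Hochberg adjusted p under 0.05 in limma, 1 of them (0.00425%) as higher in knockouts. In 29 (0.123%) the groups did not overlap, 11 of them (0.0468%) with the knockouts higher. Greb1 is among both, and nothing is read from that since it was chosen by this contrast.

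Within each genotype, Greb1 was not uniform. The 2 wild types with adrenal cortex transcripts, replicates 2 and 3, had the highest wild-type values, 5.55 and 5.70, against 4.88 to 5.13 in the other 5. Among the knockouts, the 4 with adrenal cortex transcripts ranged from 6.53 to 7.18 and the 4 without them from 6.50 to 7.08. These ranges are pooled over the Y-linked classes. With Y-linked transcripts, adrenal-high knockouts 10, 11 and 12 read 6.65, 6.53 and 6.94, against 6.52 and 6.50 in knockouts 8 and 9. Without Y-linked transcripts, adrenal-high knockout 13 read 7.18, against 7.03 and 7.08 in knockouts 14 and 15. A term for adrenal cortex transcripts was added after seeing the data to a fit with genotype and Y-linked class. It was 0.39 for Greb1 (SE 0.12, unadjusted p = 0.00553, limma adjusted p = 0.619), where 0.123% of all probe sets passed and 5.94% had an unadjusted p under 0.05. Without the 6 samples that hold adrenal cortex transcripts the genotype difference of Greb1 was 1.78 (SE 0.13), and without the 3 that hold liver transcripts it was 1.72 (SE 0.15). In whole tissue, a change in the number of cells that express a gene and a change in its RNA per cell cannot be told apart.

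The 3 knockouts without Y-linked transcripts held the 3 highest Greb1 values of the study, 7.03 to 7.18, against 6.50 to 6.94 in the 5 knockouts with them. In wild types the corresponding values were 5.02 and 5.13, inside the range of 4.88 to 5.70 of the 5 others. The genotype difference was accordingly 2.02 (SE 0.08) in the 5 samples without Y-linked transcripts and 1.40 (SE 0.16) in the 10 with them. The difference between these differences was 0.62 (SE 0.26, unadjusted p = 0.0300), and it missed the threshold over all probe sets (limma adjusted p = 0.687), where 0 passed and 7.04% had an unadjusted p under 0.05. The same 3 knockouts had the 3 highest means of the fat markers (5 of 6 measured), at 7.96, 8.27 and 8.39, against 7.44 to 7.93 in the other 5 knockouts and 7.31 to 7.95 in wild types. The part of fat transcripts in the Greb1 values was not tested. Greb1 lay above all wild types in 5 of 5 knockouts with Y-linked transcripts and in 3 of 3 without them. These counts follow from the gap between the genotypes and add nothing to it.

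**Figure D1:**
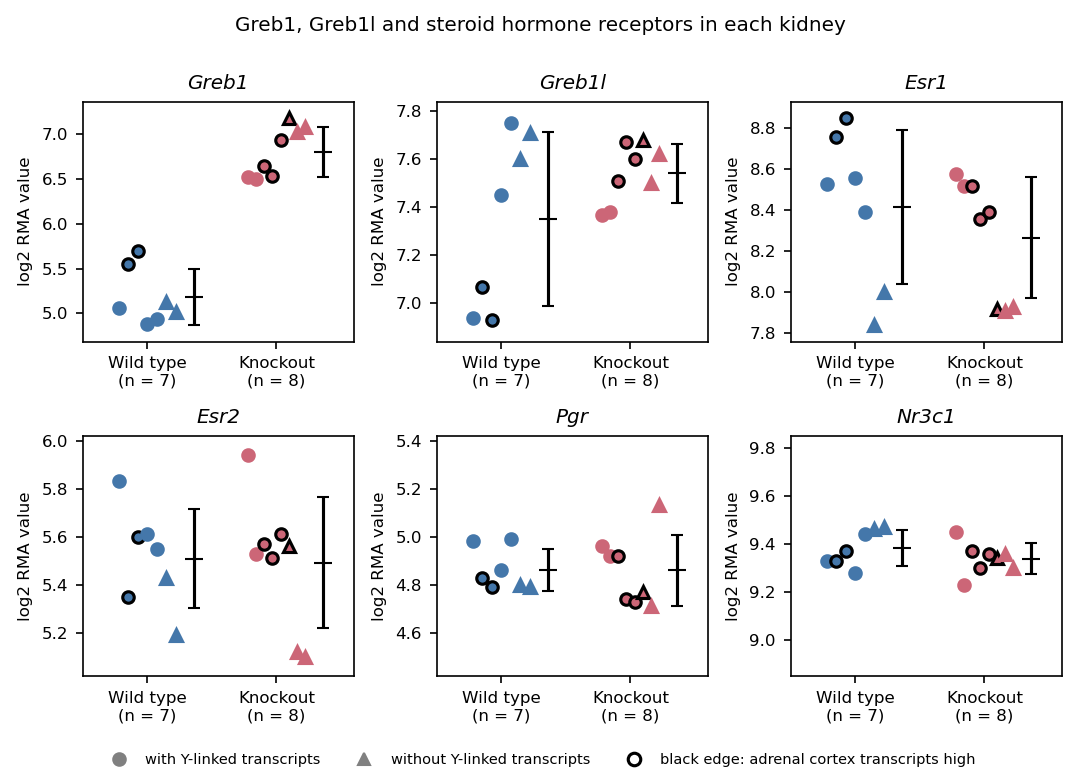
The log2 value of each of the 6 genes (vertical axes) in every kidney, by genotype, with the mean and SD beside the points, circles for samples with Y-linked transcripts, triangles for samples without them, and a black edge where adrenal cortex transcripts were high. Greb1, chosen by this contrast, alone separates the genotypes, from 4.88 to 5.70 against 6.50 to 7.18. Esr1 separates circles from triangles.

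Greb1l, which shares its protein family with Greb1, did not pass the threshold. Wild-type replicates 1 to 7 read 6.94, 7.07, 6.93, 7.45, 7.75, 7.60 and 7.71, and knockouts 8 to 15 read 7.37, 7.38, 7.51, 7.67, 7.60, 7.68, 7.50 and 7.62. The knockouts fell inside the wild-type range, in which replicates 1, 2 and 3 were the lowest of all 15 samples. The means were 7.35 ± 0.36 (SD, n = 7) and 7.54 ± 0.12 (SD, n = 8), a difference of 0.19 (SE 0.13, limma adjusted p = 0.973, exact permutation p = 0.183). The difference was 0.28 in the 10 samples with Y-linked transcripts, -0.058 in the 5 without them and -0.025 without the samples that hold adrenal cortex transcripts, so its sign depended on the samples kept.

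Esr1, which encodes the oestrogen receptor alpha, showed no genotype difference beyond the spread between mice. Its values were 8.53, 8.76, 8.85, 8.56, 8.39, 7.84 and 8.00 in wild types and 8.58, 8.52, 8.52, 8.36, 8.39, 7.92, 7.91 and 7.93 in knockouts. The means were 8.42 ± 0.37 (SD, n = 7) and 8.27 ± 0.29 (SD, n = 8), a difference of -0.15 (SE 0.16, limma adjusted p = 0.987, exact permutation p = 0.377). The values separated by Y-linked transcripts. In each genotype the samples without them were the lowest, at 7.84 to 8.00 over the 5 samples against 8.36 to 8.85 over the 10 with them. Allowing for genotype, Esr1 was 1.53-fold higher with Y-linked transcripts (0.61, SE 0.07, limma adjusted p = 1.03e-05), a contrast in which 24.9% of all probe sets passed and 11.5% did not overlap. The genotype difference was -0.15 (SE 0.09) among the 10 samples of the higher class and -0.0020 (SE 0.08) among the other 5. The contrast between sample classes was added after seeing the data, and the classes are read from the arrays and not from labels.

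Esr2, which encodes the oestrogen receptor beta, was dim, with a wild-type mean above 39.7% of probe sets. Wild types read 5.83, 5.35, 5.60, 5.61, 5.55, 5.43 and 5.19, and knockouts 5.94, 5.53, 5.57, 5.51, 5.61, 5.56, 5.12 and 5.10. The genotypes covered nearly the same range, with means of 5.51 ± 0.21 (SD, n = 7) and 5.49 ± 0.27 (SD, n = 8) and a difference of -0.016 (SE 0.12, limma adjusted p = 0.998, exact permutation p = 0.906). Esr2 too was higher with Y-linked transcripts, by 0.33 (SE 0.10, limma adjusted p = 0.0180), but here the classes overlapped, at 5.35 to 5.94 against 5.10 to 5.56. The 3 lowest values of all belonged to wild-type replicate 7 and knockout replicates 14 and 15, all without Y-linked transcripts.

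Pgr, the progesterone receptor gene, read 4.98, 4.83, 4.79, 4.86, 4.99, 4.80 and 4.79 in wild types and 4.96, 4.92, 4.92, 4.74, 4.73, 4.77, 4.71 and 5.13 in knockouts. Its probe set was the dimmest of the members by this measure, above 28.2% of probe sets in either genotype, a level at which signal over background was not analysed here. The means were 4.86 ± 0.088 (SD, n = 7) and 4.86 ± 0.15 (SD, n = 8), with a difference of -0.0026 (SE 0.065, limma adjusted p = 0.999, exact permutation p = 0.970). Of the 8 knockouts, 4 lay below every wild type and 1, replicate 15, above every wild type.

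Nr3c1, which encodes the glucocorticoid receptor, was bright and varied least. Wild types read 9.33, 9.33, 9.37, 9.28, 9.44, 9.46 and 9.47, and knockouts 9.45, 9.23, 9.37, 9.30, 9.36, 9.34, 9.36 and 9.30. The means were 9.39 ± 0.074 (SD, n = 7) and 9.34 ± 0.066 (SD, n = 8), and the difference of -0.045 (SE 0.044) missed the threshold (limma adjusted p = 0.984, exact permutation p = 0.232). Neither Nr3c1, Pgr, Greb1 nor Greb1l passed the contrast between the Y-linked classes, with limma adjusted p of 0.526, 0.791, 0.356 and 0.171. No member passed the test of a genotype difference that differs between the classes (limma adjusted p from 0.687 to 0.945).

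**Figure D2:**
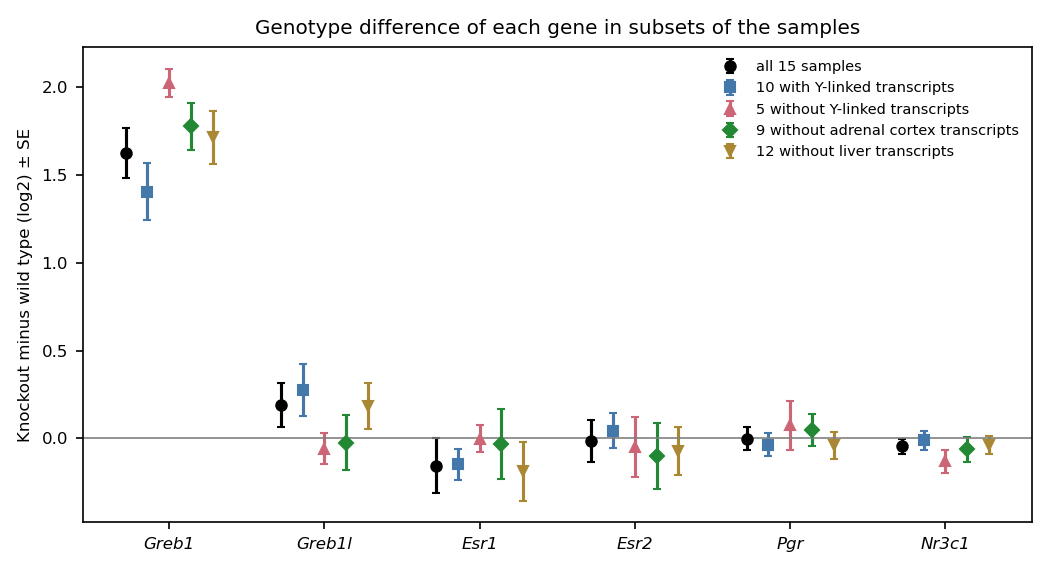
Knockout minus wild type on the log2 scale with the moderated standard error, for each gene, in all 15 samples and in the 4 subsets named in the key. Greb1 stays between 1.40 and 2.02, and the other 5 genes lie between -0.19 and 0.28.

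Co-variation between the genes was examined within each genotype, so that the genotype difference of Greb1 could not enter. Of 30 relations, 15 pairs in each of the 2 genotypes, 0 passed after adjustment in an exact permutation test of Pearson's r (smallest adjusted p = 0.248) or of Spearman's rho (smallest adjusted p = 0.497), and 2 had an unadjusted p under 0.05 for r. Both of these were in knockouts and involved Esr1, whose values fall into separate clusters by Y-linked transcripts. For that reason no r between Esr1 and another member is given pooled over the clusters. The relations of Esr1 to Greb1 and Greb1l within the 10 samples with Y-linked transcripts are given further on, and the 5 samples without them are too few. What the values show is that the 3 knockouts with the highest Greb1 had the 3 lowest Esr1 values of the knockouts, while the 2 wild types with the highest Greb1, replicates 2 and 3, had the 2 highest Esr1 values of all samples.

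With the other receptors, Greb1 in the 8 knockouts gave r = -0.56 with Esr2 (rho = -0.36, exact permutation p = 0.182 and 0.389, adjusted 0.479 and 0.635), r = -0.12 with Pgr (rho = -0.21, exact permutation p = 0.783 and 0.619, adjusted 0.921 and 0.808) and r = 0.020 with Nr3c1 (rho = -0.024, exact permutation p = 0.960 and 0.977, adjusted 0.975 and 0.977). Leaving out the 2 knockouts farthest from the median of Greb1, replicates 13 and 9, moved these to -0.79, 0.089 and -0.40. Esr2 also passed between the Y-linked classes, and its r within each genotype is pooled over these classes. Its relation to Greb1 within the samples with Y-linked transcripts is given further on. In the 7 wild types the values were r = -0.087 with Esr2 (rho = -0.18, exact permutation p = 0.854 and 0.713, adjusted 0.921 and 0.856), r = -0.48 with Pgr (rho = -0.46, exact permutation p = 0.235 and 0.302, adjusted 0.479 and 0.605) and r = -0.14 with Nr3c1 (rho = 0.14, exact permutation p = 0.725 and 0.783, adjusted 0.921 and 0.869). Without wild-type replicates 3 and 2, the farthest from the median, they were -0.13, -0.24 and 0.50.

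The correlation of Greb1 with Greb1l had opposite signs in the 2 genotypes and passed in neither. Its r was -0.69 in wild types (rho = -0.64, exact permutation p = 0.107 and 0.139, adjusted 0.436 and 0.504) and 0.60 in knockouts (rho = 0.67, exact permutation p = 0.126 and 0.0831, adjusted 0.436 and 0.499). The wild-type value rested on replicates 2 and 3 and was -0.20 without them, and the knockout value was 0.30 without replicates 13 and 9. Both values are pooled over the Y-linked classes, and the relation within the samples with Y-linked transcripts is given further on. Whether the 2 correlations differ was not tested.

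Within the 10 samples with Y-linked transcripts, with genotype means subtracted, 0 of 15 relations passed (smallest adjusted p = 0.584) and 1 had an unadjusted p under 0.05 for r. Here rho is computed on ranks taken within each genotype. The relation was that of Greb1l with Esr1, at r = -0.77 (rho = -0.80, exact permutation p = 0.0454 and 0.0192, adjusted 0.584 and 0.252), or -0.60 without the 2 samples farthest from the median of Greb1l. Greb1 with Esr1 gave r = 0.64 here (rho = 0.20, exact permutation p = 0.132 and 0.640, adjusted 0.661 and 0.902) and 0.20 without the 2 farthest samples. Greb1 with Pgr gave r = -0.62 (rho = -0.75, exact permutation p = 0.0778 and 0.0336, adjusted 0.584 and 0.252) and -0.47 without the 2 farthest. Greb1 with Esr2 gave r = -0.30 (rho = -0.05, exact permutation p = 0.454 and 0.942, adjusted 0.852 and 0.942) and -0.13 without the 2 farthest. Greb1 with Greb1l gave r = -0.51 (rho = -0.10, exact permutation p = 0.268 and 0.842, adjusted 0.669 and 0.902) and -0.25 without the 2 farthest.

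**Figure D3:**
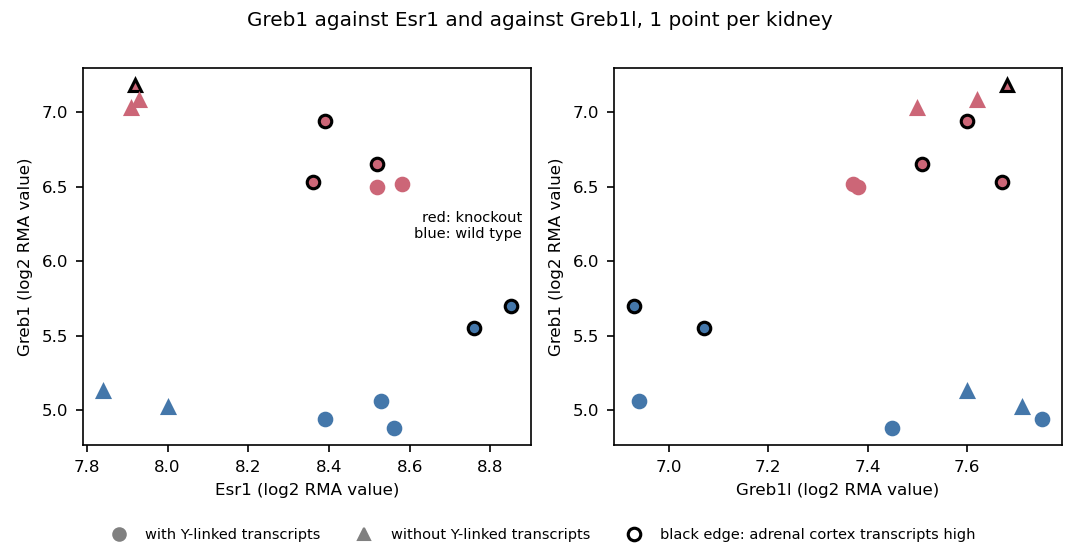
Greb1 (vertical axes) against Esr1 (left) and Greb1l (right), all on the log2 scale, 1 point per kidney, red for knockouts and blue for wild types, with the symbols for Y-linked and adrenal cortex transcripts given in the key. The 3 knockout triangles sit at Esr1 values of 7.91 to 7.93 and Greb1 values of 7.03 to 7.18, apart from the 5 knockout circles.

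The genes whose levels ran most like each member were found over all 15 samples after subtracting the genotype means, among 22180 genes, as a description with no test. For Greb1 they were Tmem35a (r = 0.86), the cyclin gene Ccnd2 (r = 0.86) and Npy, which encodes neuropeptide Y (r = 0.86). In the 6 samples with adrenal cortex transcripts Tmem35a read 7.58 to 8.32, Ccnd2 7.96 to 8.61 and Npy 7.70 to 9.22. In the other 9 samples they read 7.44 to 7.85, 7.89 to 8.39 and 7.28 to 7.99. Within the 10 samples with Y-linked transcripts r was 0.91, 0.93 and 0.96. None of the 3 genes passed between genotypes (limma adjusted p of 0.997, 0.997 and 0.999). For Greb1l they were Ppat, the first committed enzyme of purine synthesis (r = 0.96), the lipid transfer gene Stard5 (r = 0.91) and the glucose transporter gene Slc2a2 (r = 0.91). Ppat read 8.51 to 8.72 in wild-type replicates 1 to 3, where Greb1l was lowest, and 8.80 to 9.12 in the other 12 samples. For Esr1 they were Nhp2 (r = 0.98), Arf4 (r = 0.97) and Plekha8 (r = 0.97), which within the 10 samples with Y-linked transcripts fell to 0.86, 0.77 and 0.81. The closest for Esr2 was Serpinb6d (r = 0.91), for Pgr Sstr1 (r = 0.86) and for Nr3c1 Gm14322 (r = 0.80).

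Lists of the wider steroid hormone pathway were set beside the 6 genes, which were left out of them. The lists were compiled with earlier results of these data known. In each of the 8 lists, 0 measured genes passed between genotypes in limma, where 0.0128% of all probe sets passed. The median over all probe sets was 0.0083, with 12831 differences above and 10690 below 0, and 5.55% had an unadjusted p under 0.05. Among other steroid and related receptors, with 7 of 8 genes measured, the median difference was 0.035 and 0 had an unadjusted p under 0.05. The 2 smallest p belonged to Pgrmc2 (0.052, limma adjusted p = 0.987) and Esrrb (0.096, limma adjusted p = 0.989).

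Oestrogen target genes other than Greb1 and Pgr split between both directions, with 17 of 20 measured, 7 above and 10 below 0, and a median difference of -0.012. At an unadjusted p under 0.05 there were 2 of the 17, against 5.55% of all probe sets. Ccnd1, a cyclin gene of the cell cycle's growth phase, read 10.70 ± 0.074 (SD, n = 7) in wild types and 10.86 ± 0.10 (SD, n = 8) in knockouts, a difference of 0.16 (SE 0.05, limma adjusted p = 0.652), above the wild-type median in 8 of 8 knockouts. Xbp1, a transcription factor gene that also serves the unfolded protein response, differed by -0.31 (SE 0.08, limma adjusted p = 0.508) and lay below the wild-type median in 8 of 8. Tff1 and Ctsd, textbook oestrogen targets of breast cancer cells, differed by 0.034 and -0.012.

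Of 8 measured progesterone targets (10 listed), 0 had an unadjusted p under 0.05, the median difference was -0.014, and the smallest p belonged to Hand2 (0.12, limma adjusted p = 0.951) and Il13ra2 (-0.062, limma adjusted p = 0.987). Glucocorticoid targets, 18 of 18 measured, had 4 differences above and 14 below 0 and a median of -0.072. Over all probe sets 12831 differences were above and 10690 below 0. At an unadjusted p under 0.05 there were 2 of the 18, against 5.55% of all probe sets. Dusp1, a phosphatase gene that is also an immediate early gene, differed by -0.30 (SE 0.09, limma adjusted p = 0.610) and Tsc22d3, which encodes the glucocorticoid-induced leucine zipper, by -0.30 (SE 0.12, limma adjusted p = 0.801), each below the wild-type median in 7 of 8 knockouts. The lowest difference in this list, -1.11, was that of Tat, which the liver list also holds, and liver markers were high in 2 wild types and 1 knockout. Their part in that value was not tested. Androgen targets, 9 of 10 measured, had a median of -0.075, with Odc1 at -0.43 (limma adjusted p = 0.973) and Cyp2e1 at -0.25 (limma adjusted p = 0.997). All 9 were higher with Y-linked transcripts, as given further on, and 5 of 7 wild types and 5 of 8 knockouts held these transcripts. The part of that unequal mix in the androgen target differences was not tested.

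Receptor chaperones, which hold steroid receptors in a form that can bind hormone, had a median of -0.11 over 8 of 10 measured genes, with 5 of 8 below 0. At an unadjusted p under 0.05 there were 2 of the 8, against 5.55% of all probe sets. Hspa8, a constitutive chaperone of the heat shock protein family, read 12.92 ± 0.061 (SD, n = 7) in wild types and 12.70 ± 0.091 (SD, n = 8) in knockouts. The groups did not overlap, at 12.83 to 13.01 against 12.55 to 12.80, as in 0.123% of all probe sets. The difference of -0.23 (SE 0.05) missed the threshold (limma adjusted p = 0.222), and Hspa8 is named for its small p in this list. Stip1, a co-chaperone that passes client proteins between heat shock chaperones, differed by -0.33 (SE 0.14, limma adjusted p = 0.871). Coregulators had a median of -0.029 over 15 of 18 genes with 0 at an unadjusted p under 0.05, the smallest p being those of Phb2 (-0.056, limma adjusted p = 0.976) and Med1 (-0.045, limma adjusted p = 0.979). Steroid conversion enzymes, 11 of 15 measured, had a median of -0.050, with the oestrogen sulfotransferase gene Sult1e1 at -0.24 (limma adjusted p = 0.894) and Srd5a3 at 0.082 (limma adjusted p = 0.933).

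**Figure D4:**
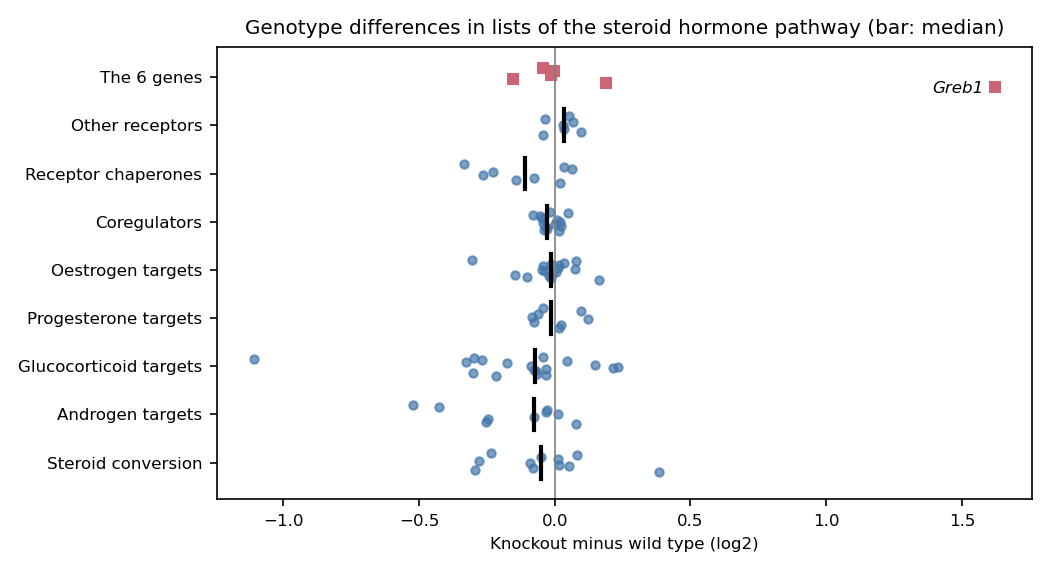
Knockout minus wild type on the log2 scale for each measured gene of the 8 lists (points, with the median as a bar) and for the 6 genes (squares at the top). Greb1 at 1.62 stands to the right of every listed gene, of which the highest is at 0.38. It was chosen by its difference in this contrast, so nothing is read from its place.

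The same lists differed from each other in how many genes passed between the Y-linked classes, where 24.9% of all probe sets passed and 10.6% were higher with Y-linked transcripts. Near that background were the progesterone targets, with 1 higher and 1 lower of 8 measured, and the coregulators, with 2 higher and 3 lower of 15. All 9 measured androgen targets were higher with Y-linked transcripts, among them Slco1a1, an organic anion transporter gene of male mouse kidney, at 10.84 to 11.63 against 4.13 to 4.70. That list holds genes already known for male kidney and was compiled with earlier results of these data known. Nothing is therefore read from its count. Among other receptors 4 of 7 were lower with Y-linked transcripts, including the mineralocorticoid receptor gene Nr3c2 (-0.34, limma adjusted p = 0.000112). Fkbp5, a co-chaperone induced by glucocorticoids, progestins and androgens, was 2.51-fold higher (limma adjusted p = 2.67e-08), while Nr3c1 and Pgr did not pass. The lists share genes, and Fkbp5 is counted as higher among the chaperones and among the progesterone, glucocorticoid and androgen targets. Of the 17 measured oestrogen targets, 4 were higher and 5 lower. The glucocorticoid targets had 3 higher and 8 lower of 18, the chaperones 4 higher and 0 lower of 8, and the conversion enzymes 5 higher and 2 lower of 11.

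Greb1 lies on chromosome 12 as Grhl1 does, with 28 measured genes between them in the RefSeq gene order of GRCm38.p6. The 3 measured genes next to Greb1 on either side did not pass in limma, where 0.0128% of all probe sets passed. These were Ntsr2 (0.029, adjusted p = 0.997), Lpin1, a phosphatidate phosphatase gene (-0.40, adjusted p = 0.748), and Gm5432 (0.12, adjusted p = 0.937) before it, and E2f6 (0.090, adjusted p = 0.981), Pqlc3 (0.14, adjusted p = 0.973) and 2410004P03Rik (0.11, adjusted p = 0.984) after it. In this order, 8, 0, 8, 4, 7 and 5 of 8 knockouts lay above the wild-type median, and the groups overlapped in each gene. Lpin1 had an unadjusted limma p of 0.0145, where 5.55% of all probe sets were under 0.05.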

How the data were processed

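Per the labels' protocols, 500 ng of kidney total RNA went into the Ambion WT Expression labelling for each of 15 one-colour arrays. The authors deposited log2 values per probe set from RMA, per the submitters' processing notes, a method that subtracts background and makes array distributions alike. The software and the array's genome build are not given in the sources used here. Scanner files were not analysed here.

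Of 41345 probe sets, 23521 had 1 gene symbol in the platform annotation, 1814 had several and 16010 none. Symbols were updated by Entrez ID for 23328. The probe set with the highest mean stood for a gene. Genotypes were compared with limma 3.58.1 in R 4.3.3 (lmFit, eBayes without trend), with no covariate or filter, two-sided, adjusted over all 23521. Exact permutation tests enumerated all 6435 assignments, with 0.000155 as the smallest possible p. The fit was tested on simulated data with known changes. A sample held adrenal cortex or liver transcripts where its list mean lay over 1 log2 unit above the median sample, and Y-linked transcripts where that mean lay above the midpoint of its range. Alternatives covered Y-linked, adrenal and liver transcripts, filters, array weights and leaving out each sample. The genes, lists and rules were chosen with earlier results of these data known. The text names all 6 genes, in each list those that passed or the 2 with the smallest p, the 3 measured neighbours on each side of Greb1, and up to 3 genes most like each member. Tat, Tff1, Ctsd, Slco1a1, Nr3c2 and Fkbp5 were named after their values were seen. The number of arrays limits the precision.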

Additional observations from a re-analysis of the deposited data

How the results depend on the processing

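The genotype difference of Greb1 kept its sign under every alternative that gave it a value. Since every knockout lay above every wild type, leaving out samples could not change that sign, and Greb1 was chosen by this contrast. The difference moved by more than 1 SD only in the samples without Y-linked transcripts, to 2.02. Leaving out 1 sample gave 1.57 to 1.71. Greb1l, Esr1, Esr2, Pgr and Nr3c1 did not pass under any alternative. Leaving out 1 sample gave 0.12 to 0.26 for Greb1l, -0.25 to -0.083 for Esr1, -0.063 to -0.030 for Nr3c1, -0.080 to 0.041 for Esr2 and -0.041 to 0.019 for Pgr. Greb1l turned to -0.058 without Y-linked transcripts and -0.025 without adrenal cortex samples. Esr2 turned when the level of Y-linked transcripts was a covariate (0.0069), in the samples with Y-linked transcripts (0.044), with array weights (0.014) and with both classes as covariates (0.024). Pgr turned without Y-linked transcripts (0.075), without adrenal cortex samples (0.047), without adrenal cortex or liver samples (0.023) and with both classes as covariates (0.034). The last 2 of these settings were chosen after seeing the data. The causes were not tested. The number of probe sets past the threshold was 3. It was 14 with that covariate, 16 with both classes as covariates, 1 in the samples without Y-linked transcripts, 1 without adrenal cortex or liver samples, and 2 to 6 leaving out 1 sample, with 6 without knockout replicate 8. Among the 11760 probe sets above the median level it was 0 (771 at an unadjusted p under 0.05), a filter that removes Greb1, Esr2 and Pgr. In all 8 lists 0 genes passed under each alternative in limma, and 0 correlations passed under each. Leaving out the 2 farthest samples left 5 wild types, too few for a single relation to pass after adjustment. That setting decides nothing for wild types and little for knockouts, of which 6 were left. Another probe set could not be tried, since each gene had 1. No paired analysis was possible because the genotypes share no replicate numbers.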
